A study of Mus musculus with 4 samples.

Results

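The genes described here are 10 mouse genes of cell migration and of the switch between epithelial and mesenchymal states: Vim, Cdh1, Cdh2, Cdh3, Zeb1, Twist1, Axl, Cxcr4, Cxcr2 and Rac1. They were chosen by name with earlier results of these data known, and all 10 were found among the 27933 genes of the count tables. RNA was sequenced from melanocyte stem cells, which replenish the pigment cells of growing hair, after they had been purified from mouse skin by fluorescence-activated cell sorting. The control group (n = 2 libraries) is labelled saline, and the stressed group (n = 2 libraries) is labelled RTX, an abbreviation that the labels do not spell out. Cells were harvested 12 h after injection. The protocol text attached to all 4 libraries names only the RTX injection, so the saline treatment of the controls rests on the treatment label. The labels give no strain, age, sorting markers or number of animals, and do not say whether the libraries of a group came from separate animals. The p-values below therefore reflect how far these libraries vary, and some of that variation may be technical. The one comparison is stressed against control, and going by the title of the series it belongs to a study of how hyperactive sympathetic nerves deplete these cells.

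As background, cells that leave an epithelium commonly exchange one set of adhesion molecules for another. E-cadherin (Cdh1) and P-cadherin (Cdh3) join epithelial cells and also tie melanocytes to neighbouring keratinocytes, whereas N-cadherin (Cdh2) and the intermediate filament protein vimentin (Vim) are typical of mesenchymal and neural crest derived cells. ZEB1 and TWIST1 are transcription factors that repress Cdh1 in many settings, AXL is a receptor tyrosine kinase linked to invasive melanoma cell states, CXCR4 and CXCR2 are chemokine receptors, and RAC1 is the small GTPase that drives the actin network at the leading edge of a moving cell.

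Total counts per library ran from 9273652 to 11854280. Mitochondrial genes took 0.906% and 2.07% of the counts in control replicates 1 and 2, and 0.479% and 0.405% in the stressed pair, and the part of this difference in the results was not tested. All 10 melanocyte markers, such as Dct and Pmel, were detected in every library, with summed levels of 23340 and 21950 CPM (counts scaled to a common library total, for such sums the total over all counts) in the controls and 40580 and 37600 CPM in the stressed libraries. Of the 10, 9 were fitted higher under stress and 1 lower. Ednrb, Sox10 and Mitf overlapped between the groups, with log2 fold changes, stressed over control, of -0.004, 0.08 and 0.21. The summed levels of the 13 keratinocyte markers, such as Krt14 and Krt15, were lower under stress, at 27900 and 16730 CPM in controls and 10690 and 8946 CPM in stressed libraries. The part of this shift in the results below was not tested. In sorted bulk samples, fewer cells of a type and less RNA per cell cannot be told apart. Fibroblast, endothelial, mast cell and T cell marker sums stayed between 0 and 23.5 CPM in all 4 libraries, and Lum, Cldn5, Cd2, Mcpt4 and Tpsb2 among them had no count in any library. Schwann cell markers, led by Mbp and Prx, summed to 48.4 and 42.7 CPM in the controls and 27.3 and 23.1 CPM in the stressed libraries. Macrophage, dendritic and Langerhans cell markers, led by H2-Ab1 and Cd74, summed to 22.2 and 108 CPM in control replicates 1 and 2, against 15.7 and 25.1 CPM in the stressed libraries.

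Vim rose in stressed cells by DESeq2, from an already high level to nearly double, but not by edgeR's quasi-likelihood test, the main test here. Cxcr2 had no count in either control library and low counts in both stressed ones, and is given as counts without a test, since only the stressed libraries carried it past the filter on low counts. Cdh1 and Rac1 lay within 0.05 log2 units of no difference, and Cdh3 and Axl differed by less than their standard errors. Cdh2 and Zeb1 were somewhat higher in both stressed libraries without passing either test. Twist1 and Cxcr4 were at or near the detection limit in all 4 libraries.

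Calls were made at a p below 0.05 after Benjamini-Hochberg adjustment over all tested genes. Of the 13348 genes tested, edgeR called 0, a background of 0%, with a smallest adjusted p of 0.115. At an unadjusted p below 0.05 edgeR marked 690 genes higher (5.17%) and 1015 lower (7.6%). DESeq2 called 233 higher (1.75%) and 356 lower (2.67%), 4.41% in all. Of the 10 genes, 8 passed the filter on low counts, and Cxcr2, which did so only through the stressed libraries, is left out of the counts that follow. Among the other 7, DESeq2 called 1 higher and 0 lower. Both stressed libraries exceeded both controls in 3 of the 7 (Vim, Cdh2 and Zeb1), and this held for 21.8% of all tested genes. Groups that did not overlap in either direction made up 44.7%. The fitted difference was above 0 for 6 of the 7, against 49.1% of all tested genes. With 1 library left out the number above 0 lay between 4 and 7.

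**Figure D1:**
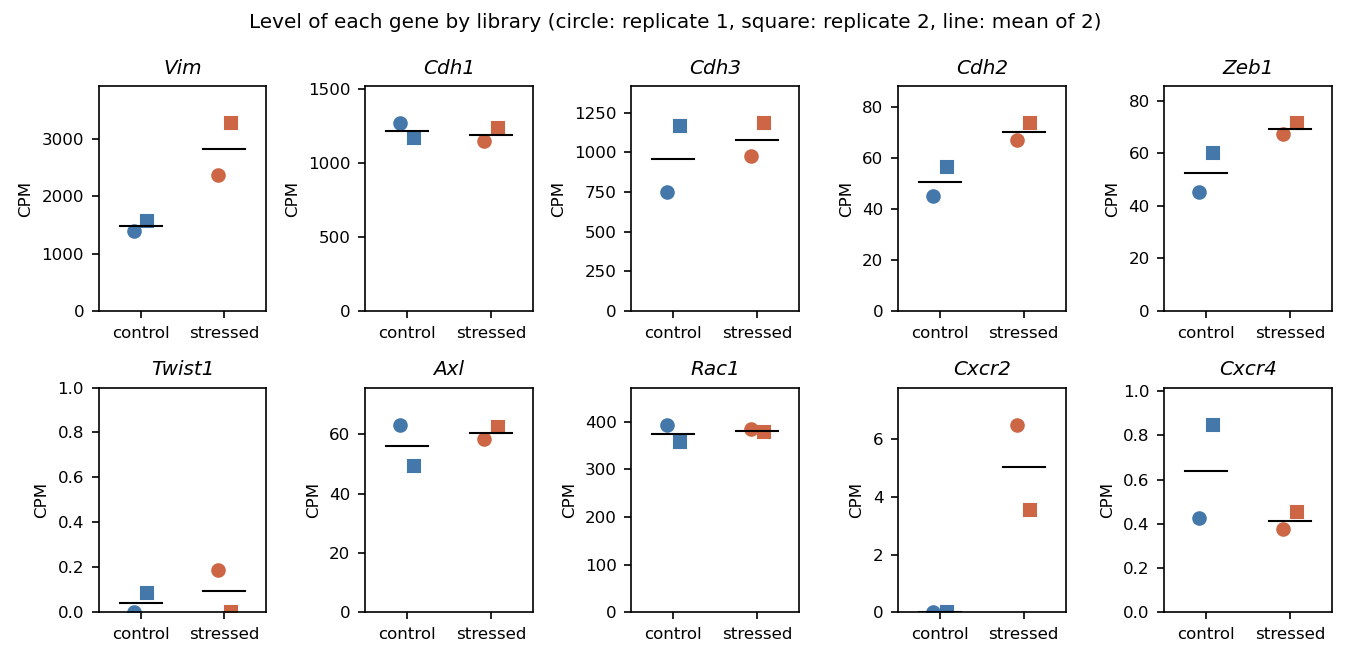
Level of each of the 10 genes in each library, in CPM on linear axes that start at 0, with circles for replicate 1, squares for replicate 2 and a line at the mean of 2 libraries. For Vim, Cdh2, Zeb1 and Cxcr2 both stressed points lie above both control points, and the groups overlap for Cdh1, Cdh3, Axl, Rac1, Cxcr4 and Twist1.

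Levels were compared between genes per exonic length, as RPKM, which is CPM per kilobase of exon. In control cells the order was Vim at 311 ± 27 RPKM, Cdh1 at 267 ± 15, Cdh3 at 241 ± 73, Rac1 at 83.5 ± 5.6, Axl at 11.2 ± 2.0, Cdh2 at 6.29 ± 1.0 and Zeb1 at 5.20 ± 1.05 RPKM (SD, n = 2). Cdh1 and Cdh3 did not differ beyond their spread, nor did Cdh2 and Zeb1, while Rac1, Axl and Cdh2 were clearly set apart from one another. Cdh3 also overlapped Vim in the controls, since control replicate 2 had 293 RPKM of Cdh3 and control replicate 1 had 292 RPKM of Vim. In stressed cells Vim stood alone at 594 ± 134 RPKM, and Cdh1 and Cdh3 again overlapped at 261 ± 14 and 272 ± 36 RPKM. By mean level, Vim, Cdh1 and Cdh3 lay above 99.6%, 99.1% and 99.1% of the tested genes, Rac1 above 96.1%, Axl above 60.4%, Cdh2 above 48.5% and Zeb1 above 42.8%. Cxcr2, averaged over all 4 libraries, lay above 10.6%. The level and rank of Rac1 are uncertain, since 2309 of its 4496 exonic bases overlap exons of Daglb.

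Vim (chromosome 2, 13573927-13582826, plus strand, mm10) encodes vimentin, the type III intermediate filament of mesenchymal cells and of melanocytes. It was at 1385 and 1567 CPM in control libraries, against 2372 and 3268 CPM in stressed ones. The groups did not overlap, and the lower stressed library exceeded the higher control. The fitted log2 fold change was 0.93 with an SE of 0.26, a 1.91-fold difference with a 95% interval from 0.30 to 1.56 log2 units. The edgeR adjusted p was 0.241 (unadjusted p = 0.0105 from the same edgeR fit) and the DESeq2 adjusted p was 0.00251. The size of the difference leaned on stressed replicate 2. Without it the log2 fold change was 0.69 and the DESeq2 call was lost (adjusted p = 0.851), while DESeq2 called Vim with any other library left out.

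Vim was also set against the cadherins within each library, a ratio that needs no scaling between libraries. The ratio of Vim to Cdh1 in RPKM was 1.05 and 1.29 in control cells, and 1.99 and 2.54 under stress. Against Cdh3 it was 1.54 and 1.13 in control cells, and 2.03 and 2.32 under stress. For either cadherin, both stressed libraries had the higher ratio. Such a ratio does not remove the shift in keratinocyte and melanocyte markers given above, and the part of that shift in it was not tested.

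Cdh1 (chromosome 8, 106603351-106670246, plus strand) encodes E-cadherin. It was at 1268 and 1171 CPM in control libraries, against 1146 and 1239 CPM in stressed ones, so that the groups interleaved. The log2 fold change was -0.03 with an SE of 0.21 and a 95% interval from -0.54 to 0.48 (edgeR adjusted p = 0.972). Keratinocytes also make E-cadherin, and the sum of their markers, given above, was lower under stress. The part of keratinocyte RNA in the Cdh1 level was not tested.

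Cdh3 (chromosome 8, 106510913-106556908, plus strand) encodes P-cadherin, a cadherin of the hair follicle and hair germ, and lies 46442 bp from Cdh1. It was at 751 and 1164 CPM in control libraries, against 979 and 1182 CPM in stressed ones. The control libraries were farther apart than the group means. The log2 fold change was 0.17 with an SE of 0.28 and a 95% interval from -0.50 to 0.84 (edgeR adjusted p = 0.86), and it turned to -0.09 without control replicate 1.

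Cdh2 (chromosome 18, 16588877-16809246, minus strand) encodes N-cadherin. It was at 45.0 and 56.4 CPM in control libraries, against 67.0 and 73.7 CPM in stressed ones. The groups did not overlap. The log2 fold change was 0.47 with an SE of 0.20 and a 95% interval from -0.02 to 0.96, and it passed neither test (adjusted p = 0.409 by edgeR and 0.453 by DESeq2). It stayed above 0 in all 16 alternative fits, between 0.32 and 0.65, those by DESeq2 with 1 library left out included.

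Taking the 3 cadherins as a total in RPKM, Cdh2 made up 1.18% and 1.26% in control cells, and 1.64% and 1.58% under stress. Cdh1 made up 58.7% of the total in control replicate 1, 46.0% in control replicate 2, and 49.6% and 46.9% in the stressed pair. Cdh3 supplied nearly all of the rest. The libraries therefore carried mixed E- and P-cadherin transcripts with little N-cadherin in either group, and control replicate 1 was the library with the most Cdh1 relative to Cdh3. That library also had the most keratinocyte marker RNA, and the part of this in the ratio was not tested.

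**Figure D2:**
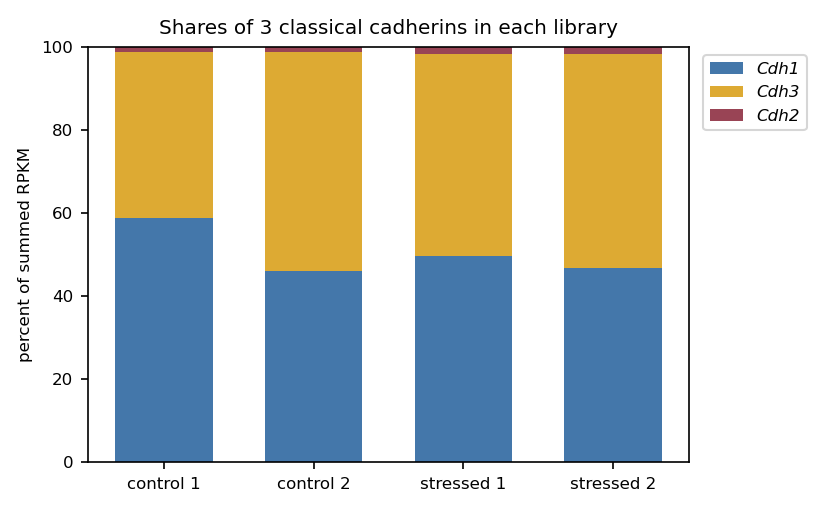
Stacked bars give the percent of the summed RPKM of Cdh1, Cdh2 and Cdh3 contributed by each gene in each of the 4 libraries. Cdh2 is a thin band of 1.18% to 1.64%, and control replicate 1 has the largest Cdh1 share, 58.7%.

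Zeb1 (chromosome 18, 5591860-5775467, plus strand) encodes a zinc finger repressor of epithelial genes. It was at 45.1 and 60.1 CPM in control libraries, against 67.4 and 71.3 CPM in stressed ones. Both stressed libraries were above both controls. The log2 fold change was 0.40 with an SE of 0.21 and a 95% interval from -0.11 to 0.91, and it passed neither test (adjusted p = 0.496 by edgeR and 0.609 by DESeq2). Zeb2, its paralogue in the melanocyte lineage, was at 158 and 284 CPM in control libraries, against 253 and 247 CPM in stressed ones. Per length the ratio of Zeb1 to Zeb2 was 0.563 and 0.417 in control cells, and 0.525 and 0.570 under stress, and these ratios overlapped between the groups.

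Twist1 (chromosome 12, 33957671-33959817, plus strand) encodes a basic helix-loop-helix factor of mesoderm and neural crest. It had 0 and 1 counts in the controls and 2 and 0 counts in the stressed libraries. A count of 0 allows up to 3 counts, or 0.321 CPM in control replicate 1 and 0.273 CPM in stressed replicate 2. Such limits account for counting error alone, because reads that carry no molecular identifier cannot be taken as separate molecules. A difference in Twist1 was not detectable at this depth.

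Among 11 transcription factors of the epithelial to mesenchymal transition, 5 passed the filter on low counts. The list's median log2 fold change was 0.18, against -0.01 over all tested genes, with 3 members up and 2 down. DESeq2 called 0 of them, against 4.41% of all tested genes. Twist2 and Foxc2 had no count in any library, and Snai1 had 1 count in all 4 libraries together. The abundant members were Zeb2 and Tcf4, the latter at 194 and 264 CPM in control libraries, against 198 and 202 CPM in stressed ones. Snai2, which encodes SLUG and was picked out after its values were seen, was at 65.6 and 67.4 CPM in control libraries, against 100.1 and 92.7 CPM in stressed ones, with a log2 fold change of 0.54, an SE of 0.17 and a DESeq2 adjusted p of 0.213.

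Of 8 regulators that maintain the epithelial state 6 were lower and 2 higher (median log2 fold change -0.76). DESeq2 called 3 lower and 0 higher, against 2.67% lower and 1.75% higher of all tested genes, and edgeR called 0. In 6 of the regulators both controls exceeded both stressed libraries, which held for 22.9% of all tested genes. Esrp1 and Esrp2, which encode epithelial splicing regulators, fell by DESeq2, with log2 fold changes of -1.29 and -1.16 in the edgeR fit. Esrp2 was at 165 and 147 CPM in control libraries, against 69.8 and 69.5 CPM in stressed ones. Elf3, an epithelial ETS factor gene picked out after its values were seen, went the other way, at 5.89 and 4.41 CPM in control libraries, against 26.4 and 8.55 CPM in stressed ones, and was not called. Grhl3, which encodes a grainyhead factor of the epidermal barrier, fell by DESeq2 from 120 and 41.2 CPM to 30.6 and 26.9 CPM, a call that did not survive leaving out control replicate 1 or either stressed library. The calls of Esrp1 and Esrp2 were lost without either stressed library. Keratinocyte markers were also lower in the edgeR fit, all 13 of them, with a median of -1.12 and 6 DESeq2 calls. Dsg3 among them was level, with log2 fold changes of -0.004 in the edgeR fit and 0.002 by DESeq2. The part of keratinocyte RNA in the falls of the epithelial regulators was not tested.

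Among 13 cadherins, 10 were tested, of which 7 were higher and 3 lower (median 0.25). Beside this list and the next ones, 49.1% of all tested genes were fitted above 0. DESeq2 called 1.75% of all tested genes higher and 2.67% lower. Cdh13, which encodes T-cadherin, a cadherin anchored to the membrane by a lipid, was the 1 call and fell by DESeq2 from 132 and 109 CPM to 60.0 and 40.9 CPM (log2 fold change -1.26, SE 0.24, DESeq2 adjusted p = 0.00116). That call was lost without stressed replicate 2. Catenins and other adherens junction genes were mixed, with 7 of 12 tested members higher, a median of 0.20 and 1 DESeq2 call in each direction. Lima1, which encodes an actin-binding protein that links cadherin complexes to actin, rose by DESeq2 from 442 and 499 CPM to 875 and 893 CPM. Jup, which encodes plakoglobin, a catenin shared with desmosomes, fell by DESeq2 from 955 and 752 CPM to 549 and 529 CPM. The calls of Lima1 and Jup were lost without either stressed library, and that of Jup also without control replicate 1. Ctnnb1, which encodes beta-catenin and was picked out after its values were seen, was at 1815 and 2238 CPM in control libraries, against 2523 and 2725 CPM in stressed ones and was not called. Tight junction, Epcam and simple keratin genes gave 0 calls among 15, with 7 higher, 8 lower and a median of -0.12. Its abundant members Cldn1, a tight junction gene, and Epcam had log2 fold changes of -0.84 and -0.49. With 1 library left out these ran from -1.36 to -0.45 for Cldn1 and from -1.31 to 0.044 for Epcam.

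Of 20 genes of the mesenchymal state, Vim included, 16 were tested, 12 had higher levels, and the median log2 fold change was 0.69. DESeq2 called 6 higher and 0 lower, Vim among them, and edgeR called 0. Of all tested genes, DESeq2 called 1.75% higher and 2.67% lower, and 49.1% were fitted above 0. Fn1, which encodes fibronectin, rose by DESeq2 from 3.75 and 3.56 CPM to 19.5 and 45.1 CPM (log2 fold change 3.14, SE 0.47, DESeq2 adjusted p = 3.39e-07). Sparc, which encodes a matricellular glycoprotein, rose by DESeq2 from 153 and 125 CPM to 251 and 387 CPM, and Cd44, the hyaluronan receptor gene, from 456 and 428 CPM to 700 and 846 CPM. The 2 remaining calls, Loxl2, a lysyl oxidase gene, and Nes, which encodes the intermediate filament protein nestin, had log2 fold changes of 1.18 and 1.80. In Fn1, Sparc and Vim stressed replicate 2 was the highest library, and their DESeq2 calls were lost without it. Without stressed replicate 1 the calls of Cd44, Loxl2 and Nes were lost, and without stressed replicate 2 they were lost as well, as were those of Loxl2 without control replicate 1 and of Nes without either control. Fibroblasts express many of these genes. The 6 fibroblast markers summed to 6.15 and 17.3 CPM in control libraries, against 23.5 and 12.7 CPM in stressed ones. Of the 4 that were tested, Col1a2 and Dcn were fitted higher, Col1a1 and Col3a1 lower, and Lum had no count. The 10 melanocyte markers had a median log2 fold change of 0.71. The parts of fibroblast RNA and of melanocyte RNA in the differences of the mesenchymal-state genes were not tested.

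**Figure D3:**
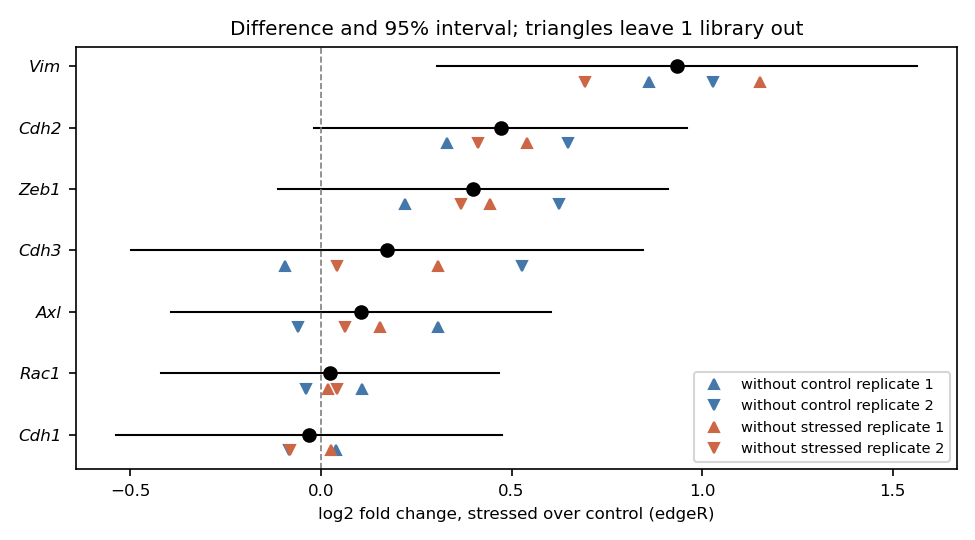
Fitted log2 fold change, stressed over control, for the 7 genes that passed the low-count filter other than Cxcr2 (black points, lines for the 95% interval), with triangles for the fits that leave 1 library out. Vim keeps values between 0.69 and 1.15, Cdh2 and Zeb1 stay above 0, and the values of Cdh3, Axl, Rac1 and Cdh1 fall on both sides of 0.

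Axl (chromosome 7, 25757273-25788705, minus strand) was at 63.2 and 49.3 CPM in control libraries, against 58.5 and 62.5 CPM in stressed ones. The stressed values lay within the range of the controls. The log2 fold change was 0.11 with an SE of 0.21 and a 95% interval from -0.39 to 0.60 (edgeR adjusted p = 0.892), and its sign turned without control replicate 2. Of the 5 genes of the TAM receptors (Tyro3, Axl, Mertk) and their ligands, 4 were lower and the median was -0.34. DESeq2 called 0 of them, against 4.41% of all tested genes. The ligand genes were the abundant ones. Gas6 had 252 and 185 CPM in control libraries, against 163 CPM in each stressed one, and Pros1 was at 228 and 170 CPM in control libraries, against 175 and 138 CPM in stressed ones.

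Cxcr2 (chromosome 1, 74153989-74161246, plus strand) encodes a receptor for CXC chemokines of neutrophil attraction and is itself a neutrophil marker. It had 0 counts in both control libraries, with 95% exact Poisson upper limits of 0.395 and 0.313 CPM. There, 3 counts would be 0.321 and 0.254 CPM. In stressed replicates 1 and 2 it had 69 and 39 counts, or 6.48 CPM (95% exact Poisson interval 5.04 to 8.20) and 3.55 CPM (2.52 to 4.85). The mean of the stressed libraries was at least 17.4-fold higher than the level that 3 counts per control library would give. No p-value is given, because the filter admitted the gene through the group in which it was high.

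Since Cxcr2 marks neutrophils, the 11 neutrophil markers were read in the same libraries. Csf3r, Ly6g, Retnlg, Mmp8, Camp and Ngp had no count in any of the 4 libraries. S100a8 was level, at 4.82 and 6.35 CPM in control libraries, against 7.42 and 4.46 CPM in stressed ones, and S100a9 had 1 and 1 counts in the controls and 2 and 11 counts in the stressed libraries. Mpo had 24 counts in control replicate 1 and 0 elsewhere, and Elane had 3 counts in control replicate 1 alone. Ltf, which glandular epithelium also makes, was at 49.7 CPM in control replicate 1, 112 CPM in stressed replicate 1, and at most 0.727 CPM in the other two. Summed over the list, the markers stood at 57.9 and 6.41 CPM in control libraries, against 120 and 6.12 CPM in stressed ones. The part of neutrophil RNA in the Cxcr2 counts was not tested. The related receptor gene Cxcr1, which lies 30538 bp from Cxcr2, had 5 counts in stressed replicate 1 and 0 in the other libraries. The exons of Cxcr2 overlap those of no other gene in the authors' annotation.

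**Figure D4:**
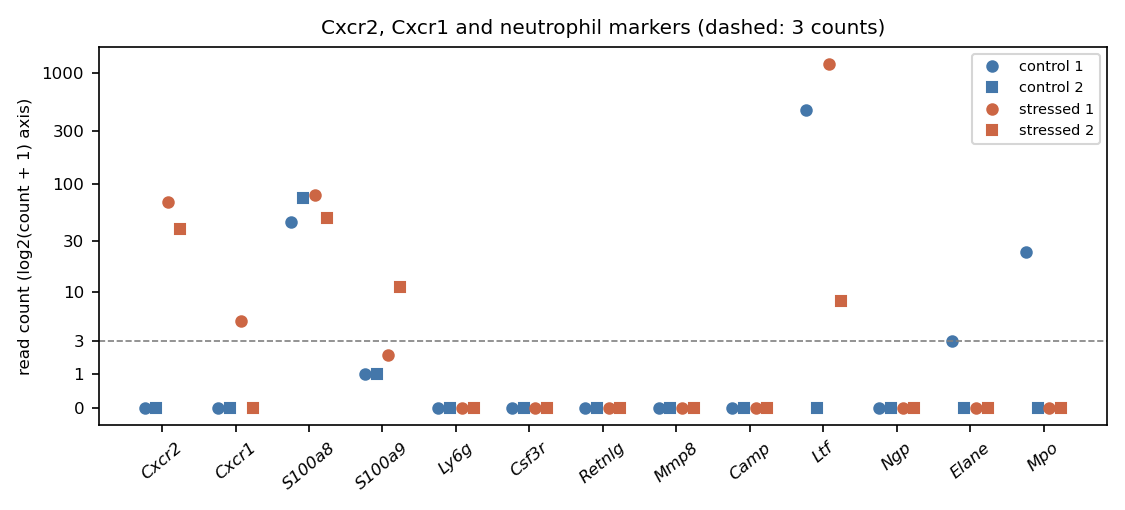
Read counts of Cxcr2, Cxcr1 and 11 neutrophil markers in each library on a log2(count + 1) axis, with a dashed line at 3 counts. Cxcr2 has 69 and 39 counts in the stressed libraries and 0 in the controls, while 6 of the neutrophil markers are at 0 in all 4 libraries and Ltf is high in replicate 1 of each group.

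Cxcr4 (chromosome 1, 128588199-128592293, minus strand) encodes the receptor for CXCL12, a pair known to guide migrating melanocyte precursors. It had 4 and 10 counts in the controls and 4 and 5 counts in the stressed libraries, or 0.429, 0.847, 0.375 and 0.455 CPM, and it did not pass the filter on low counts. The exact Poisson intervals of all 4 libraries overlapped, the widest apart being 0.41 to 1.56 CPM in control replicate 2 and 0.10 to 0.96 CPM in stressed replicate 1. Cxcl12 itself fell by DESeq2 from 35.4 and 70.7 CPM to 24.3 and 9.46 CPM (log2 fold change -1.65, SE 0.52, DESeq2 adjusted p = 0.0305), a call that depended on control replicate 2 and on stressed replicate 2. Without Cxcr2, the list of CXC receptor and ligand genes held 13, Cxcr4 and Cxcl12 among them, and 5 were tested. Of these, 2 were higher and 3 lower, Cxcl12 included, with a median of -0.05.

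The RefSeq promoter table (GRCm38.p6) held 5 of the 10 genes: Vim, Twist1, Axl, Cxcr4 and Cxcr2. The bases before the start of the 2 chemokine receptor genes are shown because one went from no count to a clear level and the other was near the limit in every library. Each is written 5′ to 3′ on the gene's own strand and stops before the annotated exon. Capitals mark CACCTG in either orientation, the E-box bound by ZEB and SNAI factors.
Cxcr2, chr1:74153744-74153988, plus strand: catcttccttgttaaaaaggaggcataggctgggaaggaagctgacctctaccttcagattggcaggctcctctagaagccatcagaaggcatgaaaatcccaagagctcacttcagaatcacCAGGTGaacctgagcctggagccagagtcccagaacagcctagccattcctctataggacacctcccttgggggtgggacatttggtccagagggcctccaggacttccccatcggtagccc
Cxcr4, chr1:128592300-128592549, minus strand: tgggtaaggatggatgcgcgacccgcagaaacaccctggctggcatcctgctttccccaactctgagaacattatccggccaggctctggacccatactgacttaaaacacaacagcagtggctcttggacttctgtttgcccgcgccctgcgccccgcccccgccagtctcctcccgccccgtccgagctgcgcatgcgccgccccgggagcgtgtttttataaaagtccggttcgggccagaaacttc
The 250 bases before the RefSeq start were searched on both strands for CACCTG, for the AP-1 site TGANTCA and for the cAMP response element TGACGTCA, which do not overlap one another here. Cxcr2 held 1 match, CAGGTG, beginning 127 bases before the RefSeq start and 122 bases before the first exon base in the authors' annotation, and the other 4 genes held none of the 3 motifs. CACCTG was found in 17.2% of all 32851 promoters, the AP-1 site in 6.75% and the cAMP response element in 1.55%. A match describes letters in this window and is not evidence of binding.

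Rac1 (chromosome 5, 143503634-143528036, minus strand) was at 393 and 357 CPM in control libraries, against 384 and 379 CPM in stressed ones, the stressed values lying between the controls. The log2 fold change was 0.02 with an SE of 0.18 and a 95% interval from -0.42 to 0.47 (edgeR adjusted p = 0.976). Of its 4496 exonic bases, 2309 overlap exons of Daglb on the opposite strand. Counting used no strand, so reads there cannot be assigned to Rac1 with certainty and its level is uncertain.

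Among the genes around RAC1, DESeq2 called 1 of the tested activators higher and 1 lower. Of all tested genes it called 1.75% higher and 2.67% lower. Cdc42, which encodes the GTPase of filopodia, was at 541 and 370 CPM in control libraries, against 427 and 445 CPM in stressed ones. Of 18 exchange factors, the proteins that load RAC1 with GTP, 16 were tested, 10 had higher levels, and the median was 0.19. Of all tested genes, 49.1% were fitted above 0. Prex1, which encodes the exchange factor P-Rex1, known for its role in mouse melanoblast migration, rose by DESeq2 from 68.8 and 80.4 CPM to 185 and 289 CPM (log2 fold change 1.67, SE 0.26, DESeq2 adjusted p = 1.01e-06, edgeR adjusted p = 0.121). Tiam1, which encodes a different Rac exchange factor tied to cell junctions, fell by DESeq2 from 61.5 and 50.3 CPM to 26.9 and 29.8 CPM (log2 fold change -0.98, SE 0.22, DESeq2 adjusted p = 0.0229). The DESeq2 call of Prex1 was lost without stressed replicate 2, and that of Tiam1 with any 1 library left out.

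Downstream of RAC1 there were 0 DESeq2 calls, against 4.41% of all tested genes. At that share lists this short would hold few calls or none, so the calls do not set activators apart from effectors. The 12 tested effectors and WAVE complex genes had a median of 0.07, with 7 higher and 5 lower. Their abundant members were Nckap1, at 629 and 671 CPM in control libraries, against 872 and 904 CPM in stressed ones, and Cyfip1, at 334 and 314 CPM in control libraries, against 342 and 341 CPM in stressed ones. The 9 genes of the Arp2/3 complex, which nucleates branched actin, had a median of 0.01, with 5 higher and 4 lower. In that complex Arpc1b was at 245 and 353 CPM in control libraries, against 377 and 495 CPM in stressed ones, while Arpc2 was at 341 and 261 CPM in control libraries, against 311 and 290 CPM in stressed ones.

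**Figure D5:**
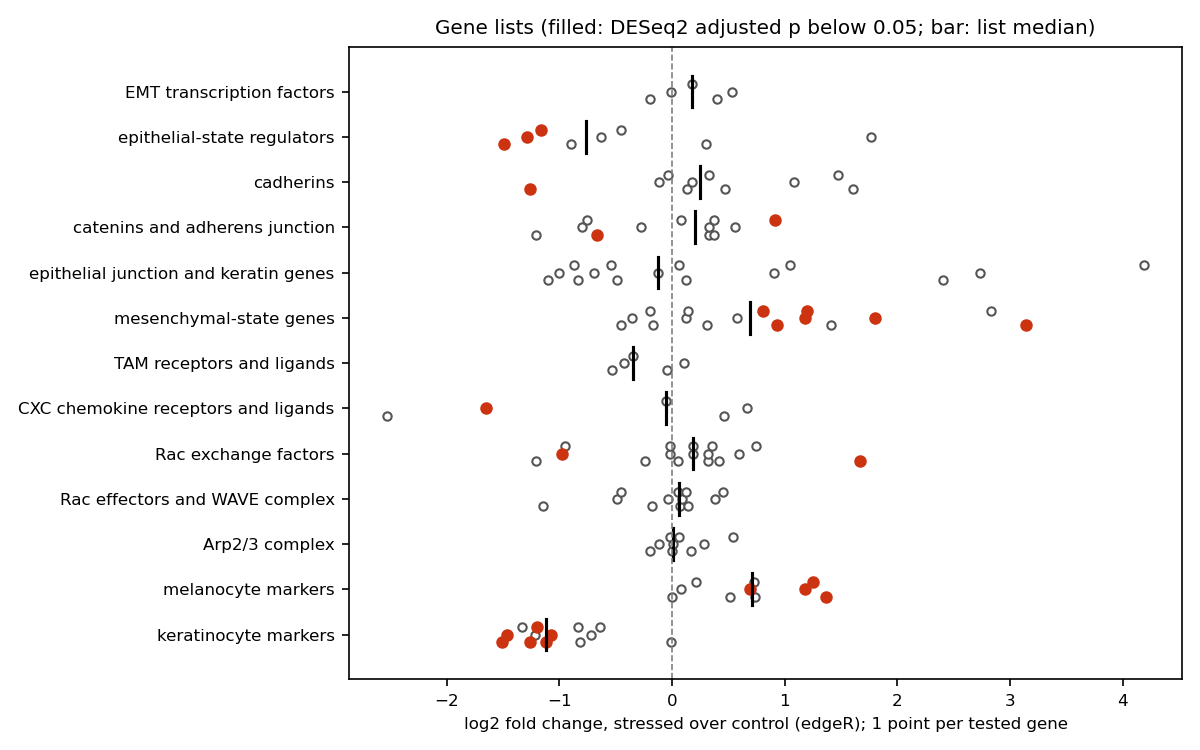
Fitted log2 fold change of each tested gene, stressed over control, in 11 gene lists and in the melanocyte and keratinocyte markers, with Cxcr2 left out of points and median because its control counts are 0. Filled points were called by DESeq2, open points were not, and bars give list medians, which run from 0.69 for mesenchymal-state genes and 0.71 for melanocyte markers to -0.76 for epithelial-state regulators and -1.12 for keratinocyte markers.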

How the data were processed

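RNA-seq was measured in 4 libraries of sorted mouse melanocyte stem cells, 2 control and 2 stressed. The deposited values are raw counts of reads per gene. Per the file headers, the authors ran featureCounts 1.6.1, summing exons by gene name at a mapping quality of at least 30, unstranded and with reads not counted as pairs. Trim Galore 0.4.1, STAR 2.5.3, the mm10 build and DESeq2 1.22.2 are named in the submitters' processing notes. Per the file headers, the alignments behind stressed replicates 1 and 2 carry the numbers 2 and 3. Replicates differed by more than sampling noise (chi-square per degree of freedom 44 and 15.0 in the control and stressed pairs).

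Testing used R 4.3.3 and edgeR 4.0.16. After filterByExpr (minimum count 10) and TMM scaling, a two-sided quasi-likelihood test with group alone was run, adjusted over all tested genes. DESeq2 1.42.0 and limma 3.58.1 (voom) were alternatives. CPM uses TMM-scaled totals, RPKM divides it by the union of exons, and sums over lists use all counts. Each SE is derived from the fold change and its F statistic. The fits were tested on simulated counts. The 10 genes and the lists were chosen with earlier results of these data known. From each list the text names the called genes, at most 4, or else the 2 most abundant, and 2 per marker list, with additions marked. Nectin and afadin genes were matched by the older symbols in the files. The result of 1 further gene list is not reported here.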

Additional observations from a re-analysis of the deposited data

How the results depend on the processing

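The number of genes called was 0 in edgeR with DESeq2 size factors, upper-quartile scaling, the filter of at least 5 CPM in 2 libraries and without the 20 most abundant genes, and 0 in limma-voom. It was 760 in edgeR with no filter beyond 1 count and 589 by DESeq2. With 1 library left out it lay between 0 and 739 in edgeR. DESeq2 with 1 library left out, chosen after seeing the data, gave between 47 and 800 calls, at 477 and 800 without control replicates 1 and 2 and 144 and 47 without stressed replicates 1 and 2. The causes were not tested. A group reduced to 1 library borrows its spread from the other group. The labels do not say whether libraries with the same replicate number were processed together, and the headers number the stressed alignments otherwise. Taken as a block, the replicate numbers left 0 calls, with Vim at 0.92. Same-numbered libraries deviated with a correlation of 0.172 across genes.

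Vim was above 0 in all 12 alternatives, from 0.69 to 1.15, and was called with no low-count filter (adjusted p = 0.0363) and by DESeq2. The filter of at least 5 CPM removed Cxcr2. Signs turned for the genes that follow, of which Epcam, at -0.49 with all libraries, was the farthest from 0. With 1 library left out in edgeR, values ran from -0.085 to 0.040 for Cdh1, -0.095 to 0.53 for Cdh3, -0.060 to 0.31 for Axl, -0.040 to 0.11 for Rac1, -0.17 to 0.67 for Zeb2, -0.39 to 0.043 for Tcf4, -1.31 to 0.044 for Epcam, -0.31 to 0.25 for Cdc42 and -0.18 to 0.22 for Arpc2. By DESeq2 the turned values without control replicate 1 were 0.032 for Cdh1, -0.10 for Cdh3, -0.18 for Zeb2, 0.24 for Cdc42 and 0.21 for Arpc2. Without control replicate 2 they were -0.059 for Axl, -0.039 for Rac1 and 0.044 for Tcf4. Cdh1 was at 0.032 by DESeq2 without stressed replicate 1, and Epcam and Arpc2 were at 0.043 and 0.054 without stressed replicate 2. Arpc2, at -0.003, was at 0.0025 with DESeq2 size factors, 0.0026 by DESeq2, 0.0059 by limma-voom, 0.0088 with the replicate block and 0.0022 without the 20 most abundant genes. Depth limits Twist1 and Cxcr4, which had at most 10 counts in a library.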

Other observations

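Simple epithelial keratin genes separated replicate 1 from replicate 2 within each group. Krt8 was at 15.3 and 0.847 CPM in control libraries, against 103 and 3.0 CPM in stressed ones. Krt18 was at 19.5 and 0.847 CPM in control libraries, against 103 and 3.18 CPM in stressed ones. Krt19 was at 7.28 and 0.0847 CPM in control libraries, against 128 and 1.82 CPM in stressed ones. These genes were picked out after their values were seen, and Ltf had the same order of libraries. Cxcr2 was also higher in stressed replicate 1 than in stressed replicate 2, but had no count in control replicate 1.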
